A study of Arabidopsis thaliana with 12 samples.

Results

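This account follows 5 nuclear genes of Arabidopsis thaliana for proteins that act on the RNA of chloroplasts and mitochondria, out of 689 loci that the platform annotation gives a single-gene probe. Of these genes 3 encode pentatricopeptide repeat (PPR) proteins, AT5G39980 on chromosome 5 and AT3G26630 and AT3G49740 on chromosome 3. The other 2 encode mTERF proteins, AT3G46950 on chromosome 3 and AT5G55580 (mTERF9) on chromosome 5. Each has exactly 1 probe of its own in the table of 3439 probes. The study measured total RNA on expression arrays in 6 samples of the pete1 mutant and 6 samples of the wild type (WT). All plants were of ecotype Columbia 0 and grew on MS, a common culture medium for plants. The pete1 mutant lacks an isoform of plastocyanin, a copper protein that passes electrons on to photosystem I. The labels give no tissue, age or plant for any sample, and they number the samples 1 to 6 within each genotype, so the spread between samples may be technical.

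The 5 genes were chosen by their log2 differences between pete1 and WT: their probes passed the limma test of that contrast in an earlier fit of these same values. The same contrast therefore chose them and is shown here, so their differences are given as a description, with no test. The genotype labels could not be set against PETE1, whose transcript is not analysed here.

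PPR proteins form one of the largest protein families of land plants. They are built from tandem repeats of a short helical motif, each repeat can recognise a base of single-stranded RNA, and the proteins edit, splice, cut or stabilise transcripts of the plastid and the mitochondrion. mTERF proteins are built from another helical repeat, also bind nucleic acid, and act in plastids and mitochondria on transcription, splicing and ribosome assembly. Both families are encoded in the nucleus, and many of their members are needed for the synthesis of the photosynthetic complexes. mTERF9 is a plastid protein known to support the assembly of the plastid ribosome.

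Intensities were deposited on a linear scale, with a mean of 0.917 to 1.01 in pete1 samples and of 1.05 to 1.07 in WT samples. The median intensity of a sample lay between 0.279 and 0.331 in pete1 and between 0.485 and 0.627 in WT, so most probes were dimmer in pete1 before any normalisation. Over all 3439 probes, 32.8% had lower values in every pete1 sample than in any WT sample as deposited, and 1.6% had higher ones. Each result is therefore given as deposited, as a rank within the sample, and after quantile normalisation, which gives all samples the same distribution of log2 values. Consecutive numbers of a genotype were more alike than other samples of it, with Spearman correlations of intensities across probes of 0.955 to 0.98 against 0.849 to 0.901. Pairs such as 1 and 2 may thus be less independent than their numbering says.

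All 3 PPR genes were dimmer in every pete1 sample than in any WT sample, and so was mTERF9. AT3G46950 alone of the 5 was on average brighter in pete1, and its groups overlapped. In total RNA of this kind, fewer cells of a type and less RNA per cell cannot be told apart. The non-overlap of the 4 lower genes is read against the 32.8% of all probes that showed it, and nothing is drawn from it, since the same contrast chose the genes.

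AT5G39980 is a PPR gene whose loss is known to impair chloroplast development. Its deposited intensity was 1.5, 1.37, 1.66, 1.6, 1.91 and 2.05 in pete1 samples 1 to 6, against 3.21, 3.13, 2.72, 2.47, 2.89 and 2.86 in WT samples 1 to 6. The groups did not overlap, and the highest pete1 sample, number 6, lay below the lowest WT sample, number 4. The means were 1.68 ± 0.253 in pete1 and 2.88 ± 0.27 in WT (SD, n = 6 each), a ratio of 0.584. After quantile normalisation the log2 difference, pete1 minus WT, was -0.69 with a standard error of 0.13, and as deposited it was -0.78. When each sample was centred on its own median instead, the log2 difference of AT5G39980 was 0.03, beside a median of 0.080 over all probes, so its lower value in pete1 was not seen on that scale.

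AT3G26630, a PPR gene whose RNA target is not given here, had a deposited intensity of 1.19, 1.03, 1.27, 0.706, 1.5 and 1.41 in pete1 samples 1 to 6. In WT samples 1 to 6 it was 3.74, 3.48, 1.9, 1.97, 2.02 and 2.27. WT samples 1 and 2 stood above the other 4 WT samples, and pete1 sample 4 was the lowest of all, yet the groups did not overlap. The means were 1.18 ± 0.287 in pete1 and 2.56 ± 0.826 in WT (SD, n = 6 each), a ratio of 0.462. The log2 difference was -0.94 after quantile normalisation, with a standard error of 0.26, and -1.1 as deposited, and it was -0.29 after median centring.

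AT3G49740, the third PPR gene, had a deposited intensity of 0.53, 0.473, 0.621, 0.636, 0.671 and 0.619 in pete1 samples 1 to 6, against 1.64, 1.64, 0.934, 0.912, 1.26 and 1.12 in WT samples 1 to 6. The pete1 samples were close together and the WT samples were not. WT samples 1 and 2 were highest, as for AT3G26630, and WT samples 3 and 4 came nearest to pete1. The coefficient of variation was 12.6% in pete1 and 26.3% in WT. The means were 0.592 ± 0.0744 in pete1 and 1.25 ± 0.329 in WT (SD, n = 6 each), a ratio of 0.472. The log2 difference was -0.55 after quantile normalisation, with a standard error of 0.16, against -1.05 as deposited and -0.24 after median centring. After normalisation the highest pete1 value was -0.36 and the lowest WT value -0.34 on the log2 scale, so the groups were only just apart. Of all probes, 6.05% were lower in pete1 without overlap on this scale.

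mTERF9 (AT5G55580) had the lowest ratio of the 5 genes. Its deposited intensity was 0.46, 0.436, 0.75, 0.78, 0.64 and 0.597 in pete1 samples 1 to 6, against 1.17, 1.11, 2.1, 2.23, 1.28 and 1.26 in WT samples 1 to 6. No pete1 sample reached a WT sample, and samples 3 and 4 were the highest of each genotype. The means were 0.61 ± 0.143 in pete1 and 1.52 ± 0.501 in WT (SD, n = 6 each), a ratio of 0.401. The log2 difference was -0.77 after quantile normalisation, with a standard error of 0.25, against -1.29 as deposited and -0.48 after median centring. After normalisation the groups overlapped, with pete1 samples 3 and 4 at -0.12 and -0.09 and WT samples 1 and 2 at -0.15 and -0.27 on the log2 scale.

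AT3G46950, an mTERF gene, differed in the other direction. Its deposited intensity was 0.828, 0.884, 1.14, 1.27, 1.15 and 1.32 in pete1 samples 1 to 6, against 0.923, 1.04, 0.928, 0.994, 0.807 and 0.993 in WT samples 1 to 6. Pete1 samples 3 to 6 lay above all WT samples, whereas pete1 samples 1 and 2 lay within the WT range. The means were 1.1 ± 0.2 in pete1 and 0.948 ± 0.0827 in WT (SD, n = 6 each), a ratio of 1.16. The log2 difference was 0.20 as deposited, 0.68 after quantile normalisation with a standard error of 0.13, and 1.01 after median centring. After normalisation the groups did not overlap, with pete1 at -0.04 to 0.55 and WT at -0.59 to -0.21 on the log2 scale, a separation upwards that 6.48% of all probes showed.

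**Figure D1:**
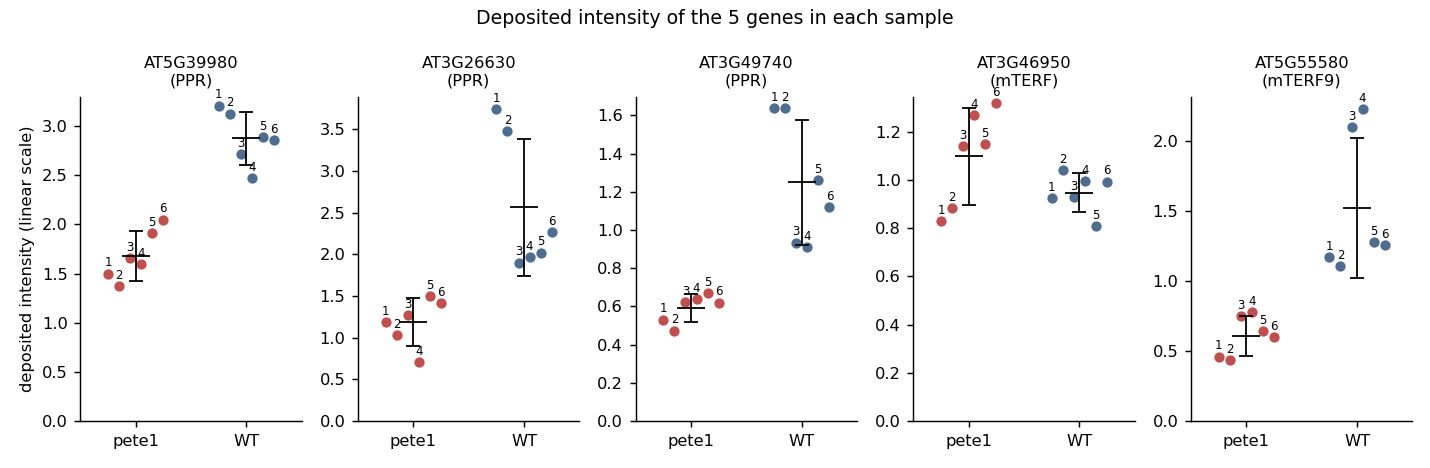
Deposited intensity (linear scale) of the 5 genes, 1 panel per gene with its own vertical axis from 0; each point is a sample with its number, and the black bars are the mean ± SD of 6 samples. The pete1 points lie below all WT points for AT5G39980, AT3G26630, AT3G49740 and AT5G55580 (mTERF9), and pete1 samples 3 to 6 lie above all WT points for AT3G46950.

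The rank of a probe among all probes of its sample does not depend on the scaling of that sample. AT5G39980 had a mean percentile rank of 90.6% in pete1 and 94.9% in WT. AT3G26630 was at 85.5% in pete1 and 93.3% in WT, and AT3G49740 at 70.9% in pete1 and 81.4% in WT. The ranks of these 3 PPR genes did not overlap between the genotypes, which held for 6.05% of all probes in the direction of a lower rank in pete1.

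mTERF9 had a mean percentile rank of 71.3% in pete1 and 84.3% in WT, and its ranks overlapped. The ranks of pete1 samples 3 and 4, 78.3% and 79%, lay above those of WT samples 1 and 2, 77.8% and 75.4%. AT3G46950 was at 84.9% in pete1 and 72.9% in WT without overlap. The mean ranks of the 5 genes thus differed by 4.3 to 13 percentage points, least for AT5G39980 and most for mTERF9. Of all probes, 10.3% had a higher rank in pete1 without overlap, beside 6.48% with higher values after quantile normalisation. Zeros numbered 244 to 293 in pete1 samples and 170 to 206 in WT samples, and zeros of the same sample cannot be ordered by rank. The part of such zeros in the 10.3% was not tested, so that share is not a measure of genes ranked higher.

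**Figure D2:**
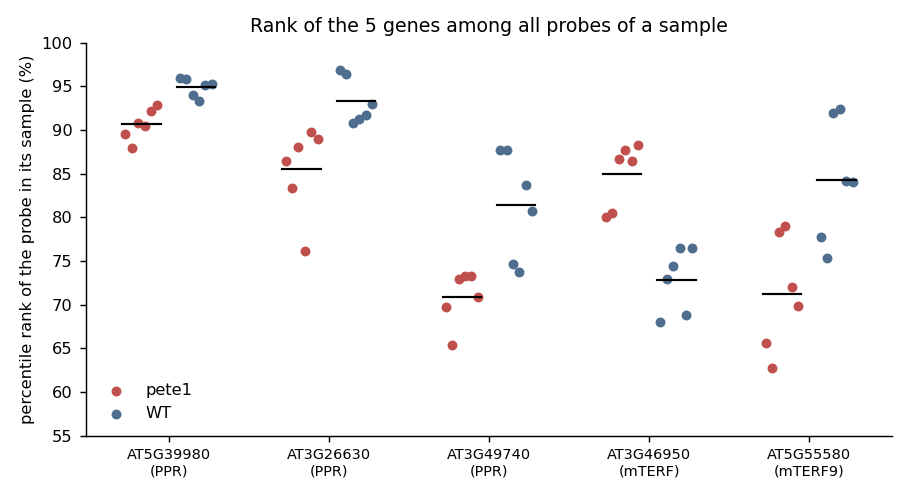
Percentile rank of each of the 5 genes among the 3439 probes of a sample (vertical axis, from 55% to 100%), pete1 in red and WT in blue, with a black line at the mean of 6 samples. Only the ranks of AT5G55580 (mTERF9) overlap between the genotypes, and those of AT3G46950 are higher in pete1.

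Values of mTERF9 went with the sample numbers in each genotype. For this gene, samples 3 and 4 averaged 0.765 in pete1 and 2.16 in WT, whereas samples 1 and 2 averaged 0.448 in pete1 and 1.14 in WT. Its ratio of pete1 to WT within a sample number therefore stayed between 0.35 and 0.502, although the intensity varied about its mean with a coefficient of variation of 23.4% in pete1 and 32.9% in WT. Samples 3 and 4 were highest and samples 1 and 2 lowest in both genotypes.

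The ratios of the PPR genes spanned wider ranges. AT3G26630 averaged 1.11 in pete1 samples 1 and 2 against 3.61 in WT samples 1 and 2, and 1.45 in pete1 samples 5 and 6 against 2.15 in WT samples 5 and 6. Its ratio of pete1 to WT ranged from 0.294 at number 2 to 0.739 at number 5. For AT3G49740 it ranged from 0.288 at number 2 to 0.697 at number 4, and for AT5G39980 from 0.439 at number 2 to 0.717 at number 6.

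AT3G46950 had ratios of 0.897 and 0.848 at numbers 1 and 2 and of 1.23 to 1.43 at numbers 3 to 6, so its deposited values were lower in pete1 at 2 numbers and higher at 4. WT samples 1 and 2 also had the highest median intensities over all probes, 0.627 and 0.623 against 0.485 to 0.524 in the other WT samples. Pete1 samples 1 and 2 had the lowest, 0.279 and 0.289 against 0.312 to 0.331 in the other pete1 samples. The part of these sample medians in the ratios at numbers 1 and 2 was not tested.

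**Figure D3:**
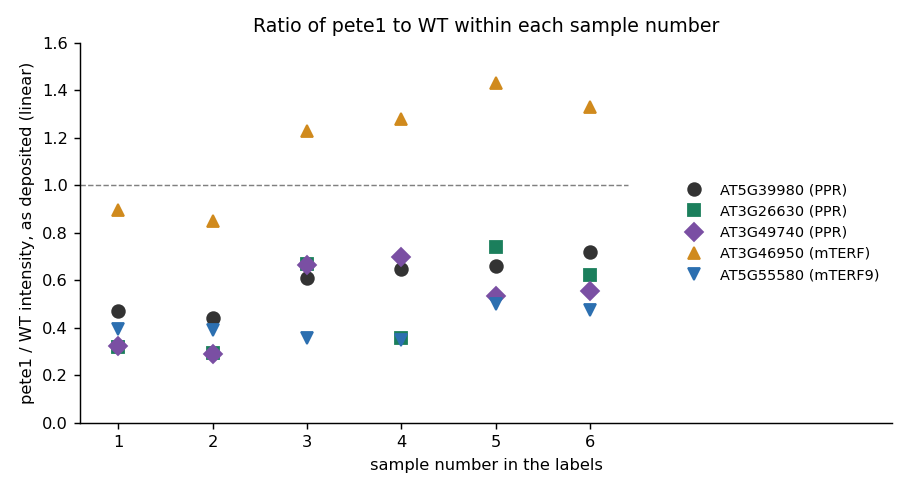
Ratio of pete1 to WT deposited intensity (vertical axis, linear from 0) within each sample number (horizontal axis), 1 symbol per gene, with a dashed line at equal intensity. AT5G55580 (mTERF9) stays between 0.35 and 0.502, all 3 PPR genes are lowest at number 2, and AT3G46950 crosses the line between numbers 2 and 3.

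The profiles over the 12 samples were compared as the root mean square difference of normalised log2 values, each taken as a deviation from the gene's own mean. Among the 5 genes, the PPR genes AT5G39980 and AT3G49740 were the closest pair, at 0.166, and AT3G26630 and AT3G46950 the farthest, at 0.95. AT3G26630 stood 0.333 from AT5G39980 and 0.351 from AT3G49740. mTERF9 lay between 0.545 and 0.801 from the other 4 genes.

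Among the other genes with a probe of their own, the nearest to AT5G39980 were AT2G39190 (ATATH8) and AT1G50770, both at 0.118, and AT2G32470 at 0.141, against a median of 0.593 over the other 689 single-gene probes. Nearest to AT3G26630 was PSB27 (AT1G03600), a factor of photosystem II assembly, at 0.254, followed by AT5G40030 at 0.272 and AT3G19120 at 0.273, against a median of 0.775. AT3G49740 was nearest to AT2G32470 at 0.145, AT2G31920 at 0.152 and AT1G07460 at 0.154, against a median of 0.587. AT2G32470 was thus among the nearest 3 of 2 PPR genes.

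AT3G46950 was nearest to AT4G27390 at 0.141, AT1G15140 at 0.164 and LpxA (AT4G29540), an acyltransferase of lipid A synthesis, at 0.167, against a median of 0.624. mTERF9 was nearest to AT2G39100 at 0.127, AT3G09850 at 0.187 and AT3G04500 at 0.276, against a median of 0.713. The distances hold the difference between the genotypes that chose the genes, and they depended on the scaling: of these 15 neighbours, 2 were again among the nearest 3 in the intensities as deposited, and 2 after median centring.

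The rest of both families was listed by locus from known gene identities. Of 21 PPR genes with a probe of their own, 3 were lower, none higher and 18 not past limma's adjusted p of 0.05, and of 7 mTERF genes 1 was higher, 1 lower and 5 not past it. Together that is 5 of 28 genes, or 17.9%, beside 21.7% of all 3439 probes (10.7% higher and 11% lower in pete1) and 20.3% of the probes with 1 located gene. These 5 are the genes described above, which were chosen as such, so nothing is read from the count. In a fit blocked by sample number, 3 of the 28 passed, beside 743 of all 3439 probes against 746 without the block. The family count was also 3 without pete1 sample 1, 2 or 6 or without WT sample 2 or 5. Of the 5 genes described, 2 passed without pete1 sample 2, beside 611 of all probes. On leaving out any other sample, 3 or 4 of them passed. With consecutive numbers as a random block 1 of the 28 passed, and with averages of consecutive numbers none did. With those averages, 3 of the 28 had an unadjusted limma p under 0.05, beside 563 of all 3439 probes. Of all probes, 7 then passed the adjusted threshold.

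The median log2 difference after normalisation was -0.23 over the 21 PPR genes and -0.02 over the 7 mTERF genes, beside -0.01 over all probes. As deposited it was -0.78 for PPR genes and -0.60 for mTERF genes, beside -0.73 over all probes. In the intensities as deposited, 13 PPR genes and 4 mTERF genes were lower past the threshold and none was higher, as were 50.8% and 3.34% of all probes. After median centring 5 of the 28 genes were higher past the threshold and 0 lower, beside 664 higher and 357 lower of all probes, so the direction of the calls followed the scaling.

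The gene of the 5 nearest to the threshold was mTERF9, with the log2 difference of -0.77 given above. The nearest outside it were the PPR gene AT5G15280 and the mTERF gene AT1G62010. AT5G15280 had an intensity of 0.664 ± 0.239 in pete1 and 1.35 ± 0.386 in WT (SD, n = 6 each), a log2 difference of -0.58 after normalisation, slightly larger in size than that of AT3G49740. AT1G62010 was at 0.479 ± 0.216 in pete1 and 0.445 ± 0.165 in WT (SD, n = 6 each), and its log2 difference was 0.87 after normalisation and 0.10 as deposited. The difference of AT1G62010 was thus larger than that of AT3G46950, with a standard error of 0.38 against 0.13.

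Of the 18 PPR genes outside the threshold, 13 had a log2 difference below 0 and 5 above 0 after normalisation. Of all 3439 probes, 1817 were below 0 and 1622 above 0, and the difference between these shares was not tested. OTP85 (AT2G02980), a factor of RNA editing in plastids, had the highest, 0.23, from 0.185 ± 0.0453 in pete1 and 0.316 ± 0.0749 in WT (SD, n = 6 each), and it turned to -0.78 as deposited. AT3G51320 had the lowest, -3.01 with a standard error of 2.23. It was dim, at 0 to 0.0414 in pete1, where 2 samples were listed at 0, and at 0.0293 to 0.207 in WT.

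CRR21 (AT5G55740), which edits the transcript of a plastid NADH dehydrogenase-like subunit, and OTP70 (AT4G25270), a plastid splicing factor, were named after their values were seen. Their log2 differences were 0.18 for CRR21, with 0.907 ± 0.3 in pete1 and 1.09 ± 0.286 in WT, and -0.03 for OTP70, with 1.05 ± 0.512 in pete1 and 1.3 ± 0.219 in WT (SD, n = 6 each). Neither passed the threshold. Among the other 5 mTERF genes AT3G18870 had the lowest difference, -0.37, with 1.32 ± 0.225 in pete1 and 2.01 ± 0.415 in WT (SD, n = 6 each).

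**Figure D4:**
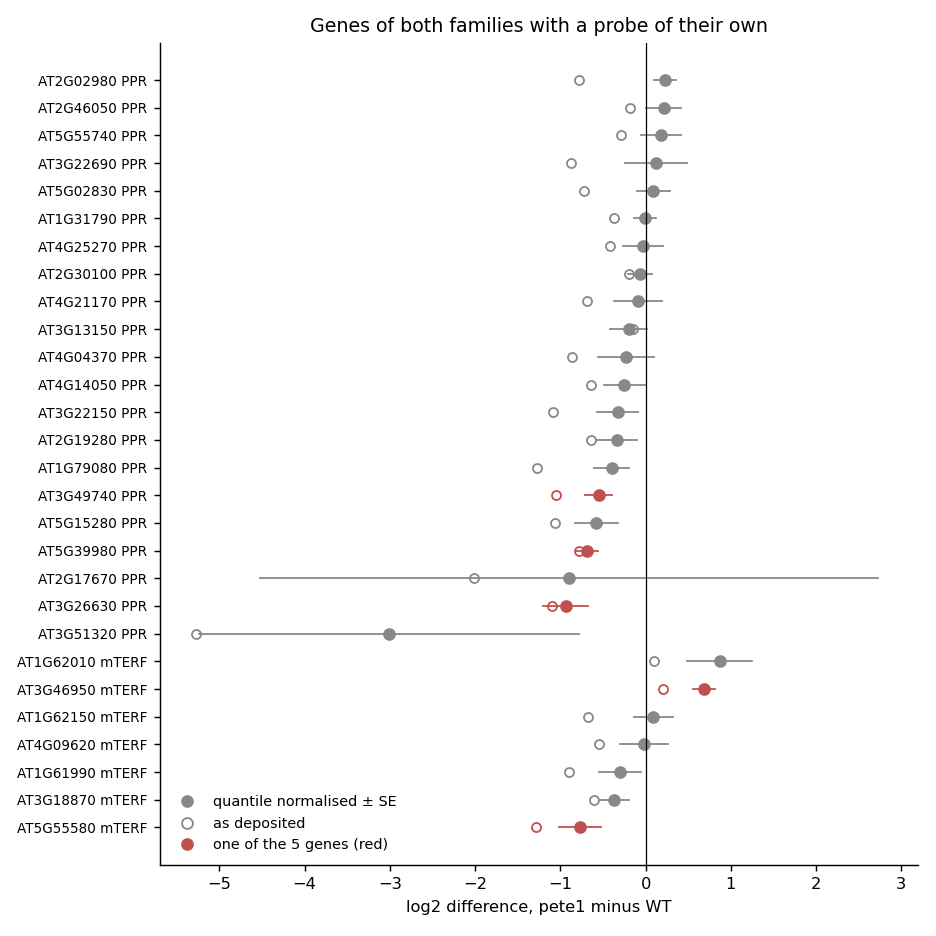
Log2 difference, pete1 minus WT (horizontal axis), of the 21 PPR genes (above) and 7 mTERF genes (below) with a probe of their own; filled points with bars are quantile-normalised values ± SE, open points the intensities as deposited, and the 5 genes described are red. Most open points lie left of the filled ones, and AT3G51320 and AT2G17670, with zeros in some samples, have the widest bars.

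PPR and mTERF proteins work beside sigma factors, phage-type RNA polymerases, editing cofactors, CRM splicing factors, plastid ribonucleoproteins and ribonucleases. Of 45 such loci listed, none had a probe of its own. Among 7 further genes for proteins that bind RNA or DNA, most of them known or annotated as organellar, 2 rose after normalisation, none fell and 5 did not pass, beside 10.7% of all probes that rose.

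AT1G70200, a plastid protein with an RNA recognition motif, had a log2 difference of 0.53 (limma adjusted p = 0.0392), with intensities of 0.311 ± 0.0987 in pete1 and 0.389 ± 0.0445 in WT (SD, n = 6 each). It turned to -0.37 as deposited, and limma's adjusted p was 0.0755 in the fit blocked by number. AT2G37510, which has the same kind of motif and whose location was not checked, had a log2 difference of 0.65 (limma adjusted p = 0.0375), with intensities of 2.29 ± 0.907 in pete1 and 1.58 ± 0.172 in WT (SD, n = 6 each). As deposited its log2 difference was 0.46 and limma's adjusted p was 0.0981, and in the blocked fit it was 0.118. Each of these calls was kept in 4 of the 11 alternative fits, and on leaving out each of the 12 samples in turn AT1G70200 passed 4 times and AT2G37510 6 times.

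The other 5 genes of that list did not pass. PALE CRESS (AT2G48120), a plastid protein needed for chloroplast development and named after its values were seen, was at 0.245 ± 0.0581 in pete1 and 0.509 ± 0.0751 in WT (SD, n = 6 each), a log2 difference of -0.22 after normalisation and of -1.09 as deposited. OSB1 (AT1G47720), which binds single-stranded DNA in mitochondria, had the lowest log2 difference, -0.23, and was at 0.418 ± 0.0559 in pete1 and 0.797 ± 0.172 in WT. AT1G12800, which had the highest log2 difference among those that did not pass, was at or near 0 in both genotypes, with 3 pete1 and 4 WT samples listed at 0.

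Probes of related genes can share transcripts, and the annotation lists 3 of the 5 genes, AT3G26630, AT3G46950 and AT5G55580, on a second probe together with other genes. Those second probes were not used. Whether transcripts of related PPR or mTERF genes contribute to the single-gene probes was not tested.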

How the data were processed

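The authors deposited 1 linear intensity per probe and sample. Their background correction, scaling, array reader and genome build are not stated in the labels. Genes were named from the platform annotation through gene identifiers in the RefSeq gene table of TAIR10.1: 692 probes had 1 gene (690 matched a locus), 870 several and 1877 none. No sequence was used.

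The smallest positive intensity (4.74e-05) was added before log2. Because the medians of samples spanned 2.25-fold, more than a set limit of 1.2-fold, quantile normalisation followed. All 3439 probes were fitted with limma 3.58.1 (with R 4.3.3 and statmod 1.5.0), comparing pete1 with WT by a two-sided test at a Benjamini-Hochberg adjusted p of 0.05. This fit had no block, and the standard errors given for the genes come from it. They treat the 12 samples as independent, so they are too small if consecutive numbers are not. The fit was tested on 12 simulated samples of 3439 genes. It recovered 51% of 100 genes changed 2-fold and 76% of 100 genes changed 4-fold, and 6 unchanged genes were called. These figures hold for the simulated samples, where fewer genes were changed than the 746 probes called here.

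Deviations from the genotype mean correlated at 0.221 to 0.452 between equal numbers of both genotypes. Unequal numbers were not compared across genotypes, and the labels name no pairs, so whether the numbers pair the samples was not tested.

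The 5 genes, the lists and the alternatives were chosen with earlier results of these data known. Family lists were made by locus from known gene identities, since product names were not at hand. Besides the 5 genes, the text names per family the gene nearest outside the threshold and those with the highest and lowest difference, the 3 genes nearest in profile, and of the organelle list those past the threshold and the extremes. Of 19 marker loci for tissues 1 had a probe of its own, so tissue was not checked. The number of samples limits the precision.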

Additional observations from a re-analysis of the deposited data

How the results depend on the processing

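Against 746 probes past the threshold, limma gave 1861 in the intensities as deposited, 163 with consecutive numbers as a random block, 7 with consecutive numbers averaged, 363 with those averages as deposited, 0 with those averages and the pair as a replicate block (591 at an unadjusted p under 0.05), and 550 to 722 on leaving out 1 sample. Against 5 PPR and mTERF genes, the same settings gave 17, 1, 0, 0, 0 and 3 to 4. Where none passed, 3, 8 and 3 of the 28 had an unadjusted limma p under 0.05, beside 563, 1390 and 591 of all 3439 probes. The sample number as a block gave 3 of these genes, beside 743 of all probes. Median centring turned the split: it gave 1021 probes, 664 higher and 357 lower in pete1, against 369 and 377, and 5 family genes, 5 higher and 0 lower, against 1 and 4, with 1 of the 5 genes described among them. The log2 difference of AT5G39980 turned to 0.028 after median centring, and that of AT1G70200 to -0.37 as deposited, averaged or not. AT5G39980 kept its direction in the other 10 alternatives, and AT3G26630, AT3G49740, AT3G46950 and mTERF9 kept theirs in all 11. For these 5 genes, the filter on zeros, the blocks and the averages left the log2 differences as they were, so the direction could not turn there. All 5 kept it on leaving out any sample. Nothing is read from these counts, since the same contrast chose the genes. The causes of the changes between settings were not tested. No measure of signal over background was used, so values near 0 have no known detection limit.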
